A study of Mus musculus with 12 samples.

Results

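The genes described here encode the translation initiation factors (eIF) and elongation factors (eEF) and were followed in mouse 2-cell embryos, in which transcription of the embryonic genome begins. Members were taken by symbol, as genes named Eif1 to Eif6 or Eef1 and Eef2, leaving out pseudogenes, the Eif1ad family, Eif4e1b, Eif4enif1 and Eif2s3y. This gave 65 of the 17012 genes listed in both tables of the series, and every member was listed in both. The rule uses no measured value. The study asked what Eif1ad3 does around genome activation, in a knockdown experiment and in an immunoprecipitation of RNA with the tagged protein.

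In the knockdown experiment, CF1 embryos received RfxCas13d mRNA alone (labelled WT, called control here) or the same mRNA with guide RNA against Eif1ad3 and its variants (labelled Eif1ad3_KD). RfxCas13d is an enzyme that cuts RNA. The samples' own protocol differs and names control or antisense morpholino oligos given to oocytes with Cas13d protein, so the reagent is uncertain. The immunoprecipitation used 2-cell embryos labelled Eif1ad3_OE, into which synthetic mRNA for Eif1ad3 with a His tag had been injected at the zygote stage (200 ng/uL). Lysates, 200 cells for each replicate, went onto magnetic beads with either an antibody to the tag or IgG as negative control. By their labels both pulldown groups carried the extra mRNA. The design text also names 200 control cells without saying which library they gave. Each of the 4 groups had 2 libraries, replicates A and B. No label says whether A and B came from separate batches of embryos, so p-values measure only the spread between these samples, which may be technical.

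Values are CPM, the reads of a gene scaled to a common library total. Knockdown-table libraries held 18173916 to 27902514 reads and pulldown libraries 4678563 to 8364126, and 3 reads, the floor used for a gene at 0, correspond to 0.108 to 0.641 CPM. Of 10 genes fixed as 2-cell markers, all 10 were detected in the control embryos, with summed levels of 4544 to 4896 CPM there and 3581 to 3777 CPM in the knockdown. In the pulldown the same 10 summed to less, at 1308 to 1315 CPM in His and 661 to 720 CPM in IgG. The 5 listed genes of the cumulus and granulosa list (5 of 10) summed to at most 14.2 CPM in any library, and the 3 listed genes of the blood and immune list (3 of 6) to at most 93.8 CPM. At the median of 10 oocyte markers the 2 knockdown libraries stood apart from the controls in opposite directions. Only 4 of the 10 had A above and B below both controls. Bmp15 and Oosp1 were above both controls in both knockdown libraries, and Zp3 was below. In knockdown A 7 of the 10 were above both controls and in knockdown B 7 of the 10 were below both, with median deviations of 1.18 and -1.30 from the control mean on the log2(CPM + 1) scale. Their sum was 15144 CPM in knockdown A, 6878 CPM in knockdown B and 7008 to 7135 CPM in the controls. The IgG libraries stood apart from each other: across all listed genes their log2(CPM + 1) values correlated at 0.564, against 0.911 between the His libraries. Eif1ad3 itself was at 839 and 663 CPM in controls A and B and at 277 and 377 CPM in the knockdown libraries.

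As background, translation begins when eIF2 brings the initiator tRNA to the small ribosomal subunit, on which eIF1, eIF1A, eIF3 and eIF5 assemble. The cap complex eIF4F, made of the cap binder eIF4E, the scaffold eIF4G and the helicase eIF4A, recruits this subunit to the mRNA, and eIF5B then joins the large subunit. eEF1A delivers each following aminoacyl-tRNA and eEF2 moves the ribosome along. Eif1ad3 carries the name of the domain found in eIF1A, which holds the small subunit in its scanning form. Early mouse embryos translate stored maternal mRNA before and during genome activation, so many of these transcripts can be maternal or newly made, and bulk CPM cannot tell the 2 sources apart.

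In knockdown against control embryos no member passed the test. Of 65 members, 63 reached 1 CPM in at least 2 of the 4 libraries and were tested (Eef1akmt3 and Eef2kmt did not), and 0 passed at an adjusted p under 0.05 (limma, Benjamini-Hochberg over 13332 genes). Their adjusted p ranged from 0.859 to 0.998. The background was the same, with 0.0% of all genes called in either direction. Eif1ad3, the targeted gene, did not pass either, with a knockdown mean of 43.5% of the control mean. Its log2 fold change was -1.21 (limma unadjusted p 0.00608, adjusted p 0.859), so a reduction of that size could go uncalled. At an unadjusted p under 0.05 there were 9 members, against 5.45% of all genes. On the reads recovered from the CPM, edgeR called 0 members (9 unadjusted) and DESeq2 0 (11 unadjusted). The median log2 fold change of the 63 members was -0.10, beside 0.02 for all genes tested, and values ran from -1.40 (Eif3b) to 1.69 (Eef1aknmt). All fold changes here are differences of log2(CPM + 1), which understate the change of genes at low levels.

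In 19 of the 63 members the 2 knockdown values were under both control values (30.2%), an arrangement found in 18.4% of all genes tested, and in 8 they were above both (12.7%), found in 18.1%. A further 12 members had knockdown replicate A above and replicate B below both controls, which 19.1% of all genes did, and 8 had the opposite order, which 8.21% did. These 20 members therefore had knockdown values on both sides of the controls. The median member differed from the control mean by -0.09 in knockdown A and -0.28 in knockdown B on the log2(CPM + 1) scale. The number of members called rested on which knockdown library was kept. Without replicate A 22 members passed (8 higher and 14 lower), or 34.9% beside 15.1% of all genes. Without replicate B 4 passed (2 higher and 2 lower), or 6.35% beside 3.23% of all genes. These are fits where the lone knockdown library is assumed to vary like the controls.

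**Figure D1:**
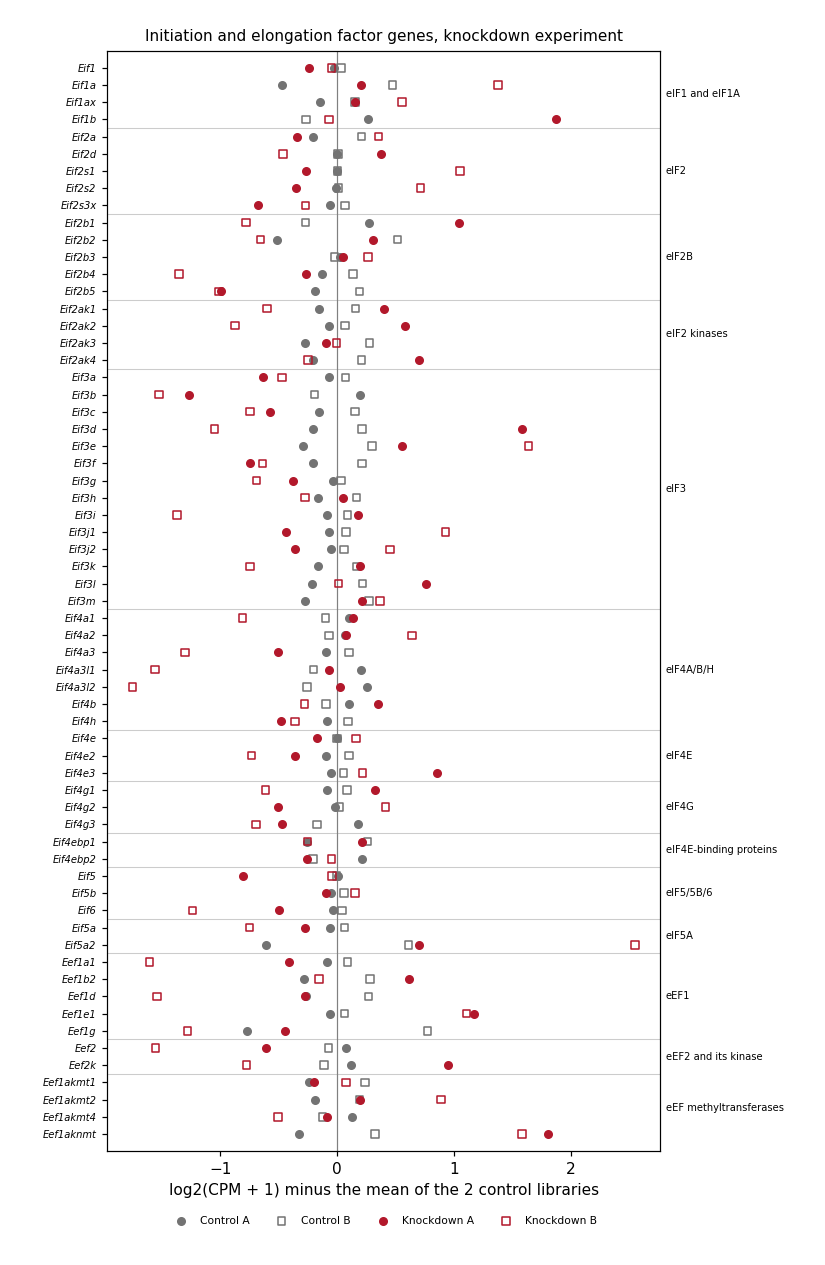
Each row is 1 of the 63 tested factor genes, grouped by role. The horizontal axis gives log2(CPM + 1) minus the mean of the 2 control libraries, with grey points for controls and red points for knockdown libraries (filled circles replicate A, open squares replicate B). In 20 genes the red points fall on opposite sides of the grey ones, and 19 have both red points to the left.

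The eIF1 and eIF1A genes, which hold the scanning ribosome and test the start codon, had median log2 fold change 0.57 over 4 members. Eif1 was at 2179 and 2278 CPM in controls A and B and at 1889 and 2151 CPM in knockdown A and B. Its knockdown values lay just under the controls (a log2 fold change of -0.14, SE 0.29). Eif1ax, the X-linked gene for eIF1A, was at 116 and 143 CPM in controls and 143 and 189 CPM in the knockdown. Its autosomal relative Eif1a was at 51.2 and 99.5 CPM in controls and 82.4 and 187 CPM in the knockdown. The 2 groups overlapped for both eIF1A genes, for Eif1ax by under 1 CPM. Eif1b, a second gene for an eIF1 protein, was at 58.1 and 39.9 CPM in controls, 179 CPM in knockdown A and 45.8 CPM in knockdown B, so only replicate A stood above the controls. Reads of such closely related copies could have been divided between them in ways the labels do not state.

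eIF2 is the carrier of initiator tRNA, built of an alpha, a beta and a gamma subunit. Eif2s1, the alpha subunit that stress kinases phosphorylate, was at 438 CPM in both controls, at 363 CPM in knockdown A and at 908 CPM in knockdown B. Eif2s2, the beta subunit, had the same order, with 750 and 764 CPM in controls, 593 CPM in knockdown A and 1240 CPM in knockdown B. In both genes the 2 knockdown libraries stood on opposite sides of the controls. Eif2s3x, the gamma subunit, was below the controls in both, at 73.9 and 98.1 CPM against 113 and 124 CPM (a log2 fold change of -0.47, SE 0.35). Of the 5 genes of eIF2B, which reloads eIF2 with GTP, Eif2b5 had the lowest log2 fold change. It encodes the catalytic epsilon subunit and was at 34.9 and 45.6 CPM in controls and 19.6 and 19.3 CPM in the knockdown, or 48.2% of the control mean (SE of the log2 fold change 0.42). Its 2 groups did not overlap, yet it did not pass (unadjusted p 0.044, limma, adjusted p 0.859). None of the 4 eIF2 kinase genes (Eif2ak1 to Eif2ak4) had groups that did not overlap, and 3 of the 4 had replicate A above and B below both controls, as 19.1% of all genes did.

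The 14 eIF3 genes encode the large scaffold that joins the small subunit to the cap complex. Both knockdown libraries were below both controls in 5 of them (35.7%, beside 18.4% of all genes), above in 1 (7.14%, beside 18.1%), and overlapped in 8. Eif3b, a core subunit, was at 85.1 and 64.9 CPM in controls and at 30.2 and 25.2 CPM in the knockdown, 36.9% of the control mean. This was the lowest log2 fold change of any member (-1.40, SE 0.39, limma unadjusted p 0.0073, adjusted p 0.859). Eif3a, the largest subunit, was at 603 and 663 CPM in controls and 406 and 456 CPM in the knockdown. Eif3c, its partner in the core, was at 214 and 265 CPM in controls and 159 and 141 CPM in the knockdown. Neither gene's groups overlapped. Eif3e, at the edge of the complex, went the other way with 70.4 and 107 CPM in controls and 128 and 271 CPM in the knockdown (a log2 fold change of 1.10, SE 0.45). Eif3j1 and Eif3j2, near copies for a loosely bound subunit, were both below the controls in knockdown A (122 and 115 CPM) and above them in knockdown B (315 and 202 CPM), with controls of 157 and 174 CPM for Eif3j1 and 142 and 154 CPM for Eif3j2.

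Among the cap complex genes, Eif4e was at 2581 and 2575 CPM in controls and 2285 and 2879 CPM in the knockdown, and Eif4g2, a scaffold that does not bind eIF4E, was at 1065 and 1092 CPM in controls, 758 CPM in knockdown A and 1437 CPM in knockdown B. Both had means within 0.05 log2 units of the controls, with the replicates on either side. Eif4g1, the main scaffold, was at 53.2 and 59.9 CPM in controls and at 71 and 36.5 CPM in the knockdown. Eif4g3 was lower in both knockdown libraries, at 18.9 and 16.1 CPM against 30.2 and 23.5 CPM. Of the helicase genes, Eif4a1 was at 316 and 275 CPM in controls and 323 and 167 CPM in the knockdown. Eif4a2 was at 258 and 234 CPM in controls and 259 and 383 CPM in the knockdown. Eif4a3, whose protein marks exon junctions rather than the cap, was at 618 and 709 CPM in controls and 465 and 268 CPM in the knockdown (a log2 fold change of -0.91, SE 0.36). Its copies Eif4a3l1 and Eif4a3l2 were at 143 and 88.7 CPM in knockdown B, below their controls, and within the controls' range in knockdown A. Eif4ebp1 and Eif4ebp2, which bind eIF4E and block it, were at 7.71 to 18.8 CPM in all 4 libraries, and their groups overlapped. Eif4e3, an atypical cap binder, was above the controls in both knockdown libraries, at 86.2 and 55.2 CPM against 45.5 and 49.2 CPM.

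The late factors did not all have the same arrangement of values, and none passed the test. Eif5, which triggers GTP hydrolysis by eIF2, was at 1258 and 1249 CPM in controls, 718 CPM in knockdown A and 1216 CPM in knockdown B. Eif5b, the joining factor, stayed between 280 and 332 CPM in all 4 libraries. Eif6, which keeps free large subunits apart from small ones, was at 495 and 523 CPM in controls and 359 and 215 CPM in the knockdown (a log2 fold change of -0.87, SE 0.35). Eif5a, the hypusine-bearing factor that eases ribosomes past difficult peptide bonds, was at 1032 and 1127 CPM in controls and 891 and 641 CPM in the knockdown. The knockdown libraries thus stood below the controls for Eif5, Eif6 and Eif5a. Eif5a2, the second eIF5A gene, was at 5.52 and 14.2 CPM in controls and 15.1 and 57.2 CPM in the knockdown.

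Of the 7 genes for eEF1, eEF2 and its kinase, 3 had both knockdown libraries below both controls (18.4% of all genes) and 1 had both above (18.1%), none passing the test. Eef1a1, which delivers aminoacyl-tRNA, was at 656 and 739 CPM in controls, 523 CPM in knockdown A and 228 CPM in knockdown B. Its knockdown mean was 53.8% of the control mean (a log2 fold change of -1.01, SE 0.42, limma unadjusted p 0.0431). Eef2, the translocation factor, was at 121 and 109 CPM in controls and 75.1 and 38.5 CPM in the knockdown, a mean of 49.2% (a log2 fold change of -1.08, SE 0.42, limma unadjusted p 0.0323). Eef1d, a subunit of the exchange factor of eEF1A, was at 150 and 217 CPM in controls and 148 and 61.3 CPM in the knockdown. All 3 had both knockdown libraries below both controls, by more in replicate B than in A. Another subunit, Eef1g, overlapped the controls, as did Eef1b2. Eef1e1, which belongs to the multi-synthetase complex despite its name, was at 68.6 and 65.5 CPM in the knockdown against 28.6 and 31.2 CPM in controls (a log2 fold change of 1.14, SE 0.38, limma unadjusted p 0.0165, adjusted p 0.859). Eef2k, the kinase that switches eEF2 off, was at 43 and 36.6 CPM in controls, 77.3 CPM in knockdown A and 22.7 CPM in knockdown B. Of the methyltransferases that modify eEF1A and eEF2, 4 of 6 were tested and 2, Eef1akmt2 and Eef1aknmt, were above both controls in both knockdown libraries. Eef1aknmt had the highest log2 fold change of any member, 1.69, at 0.56 and 1.45 CPM in controls and 5.81 and 4.84 CPM in the knockdown.

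Several of the genes on the low side are known as TOP mRNAs, whose first bases are a C followed by a run of C and T and which respond together to mTORC1, as ribosomal protein mRNAs do. From textbook knowledge 10 members were listed as such (Eef1a1, Eef1b2, Eef1d, Eef1g, Eef2, Eif3a, Eif3e, Eif3f, Eif3h and Eif4b). Their median log2 fold change was -0.62, beside -0.05 for the other 53 members tested. In 5 of the 10 both knockdown values lay under both control values, and in 1, Eif3e, above them. Both values were under the controls in 26.4% of the other members and 18.4% of all genes. Ribosomal protein genes had a median of -0.57 over 88 genes, with 56 (63.6%) below both controls. None of these genes passed the test. To show what such a start looks like, the 20 bases before and the 20 from the annotated start are given for a few members, from RefSeq on GRCm38.p6, with capitals for a C followed by at least 5 bases that are each C or T, where the first C was searched for from 10 bases before to 10 bases after the start. The capitals begin no earlier than this window, and the run of C and T itself reaches upstream of the window for Eif2b5, Eef1akmt2 and Eif4e. In Eif2s3x and Eif2ak4 bases T, left in small letters, come directly before the first C of the capitals. Eef1a1 lies at chr9:78481705-78481744 (minus strand), Eif3f at chr7:108934395-108934434 (plus), Eif2b5 at chr16:20498797-20498836 (plus), Eif2s3x at chrX:94212632-94212671 (minus) and Eef2 at chr10:81176611-81176650 (plus).
Eef1a1: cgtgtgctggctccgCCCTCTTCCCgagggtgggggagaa
Eif3f: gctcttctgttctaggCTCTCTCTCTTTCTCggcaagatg
Eif2b5: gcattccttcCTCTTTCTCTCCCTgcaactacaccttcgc
Eif2s3x: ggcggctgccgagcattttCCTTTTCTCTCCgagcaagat
Eef2: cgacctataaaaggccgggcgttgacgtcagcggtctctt
Eef1a1, Eif3f, Eif2b5 and Eif2s3x held such a run, and the window of Eef2 held none. Of the 10 members listed as TOP mRNAs 6 had a RefSeq start, of which 2 (Eef1a1 and Eif3f) held a run and 4 (Eef1b2, Eef2, Eif3a and Eif4b) did not. Eif2b5 and Eif2s3x are not on that list. Of 50 members matched to a RefSeq start by symbol, 11 (22.0%) held a run, read on the transcribed strand only, beside 22.1% of the 10250 tested genes with a start and 55.4% of 65 ribosomal protein genes. Among members the median log2 fold change in the knockdown was -0.17 with a run and -0.08 without. Ribosomal protein genes had the opposite order, with -0.38 with a run and -0.66 without, and all tested genes had -0.01 and 0.03. RefSeq starts are not mapped in these embryos, so a match or its absence describes these letters only.

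The pulldown was compared next, His against IgG, which asks which RNAs are recovered with the tagged protein beyond the bead background. Of 65 members 59 were tested, and 13 were higher and 1 lower in His at an adjusted p under 0.05 (limma, over 11232 genes). The share called higher, 22.0%, stood below the 35.7% of all genes called higher, while 0.917% of all genes were called lower. Of the 13 called higher, 10 had both IgG libraries under 1 CPM (Eif1ax, Eif2b1, Eif2b2, Eif2d, Eif2s1, Eif2s3x, Eif4e3, Eef1g, Eef1akmt1 and Eef1akmt4). Such genes entered the test through their His values alone and could only be higher, so their calls are given as a description. Across all genes 90.9% of the higher calls were of this kind. Of the 48 members that had 1 CPM or more in an IgG library, 3 were called higher (6.25%, beside 5.25% of such genes): Eif1, Eef1b2 and Eif2ak1. Members had a median log2 fold change of 0.88, and all genes tested had 2.01. Both His libraries lay above both IgG libraries in 28 members (47.5%), as in 54.1% of all genes, and below in 8 (13.6%), as in 9.06%. At an unadjusted p under 0.05 there were 18 members, beside 44.6% of all genes. The calls changed with the tool: edgeR, run on recovered reads, called 0 members (16 unadjusted, smallest adjusted p 0.0547), quantile normalization 0 (15 unadjusted), and DESeq2 20 (14 higher and 6 lower), or 33.9% beside 49.1% of all genes. Of all genes edgeR and quantile normalization also called 0.

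Detection in IgG was uneven, which bears on every value that follows. Of the 59 tested members, 13 had no read in IgG A and 13 had none in IgG B, with 7 at 0 in both. Of the members left untested, Eif2ak2 had no read in either His library, Eef1aknmt and Eif5a2 none in His B, and Eef2kmt none in His A. Across all genes tested 28.2% were at 0 in both IgG libraries. Leaving out IgG replicate A gave 39 called members (67.2%, beside 69.1% of all genes) and leaving out replicate B gave 40 (70.2%, beside 70.0%), in fits that assume the lone IgG library varies like the His pair. Leaving out either His library left 0 (2 unadjusted in each). In those fits 10 of the 14 called members no longer met the filter and were not tested, and Eif1, Eef1b2, Eif2ak1 and Eif2b5 were tested and did not pass. The 6 remaining members were not tested because fewer than 2 libraries reached 1 CPM: Eef1aknmt, Eef2kmt, Eif2ak2, Eif3e, Eif3m and Eif5a2. Where both IgG libraries had 0 reads, folds are given against a floor of 3 reads in IgG B, 0.641 CPM per library. Such folds do not bound the spread between IgG libraries, since Eif3f was at 150 CPM in IgG A and 0 in IgG B.

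**Figure D2:**
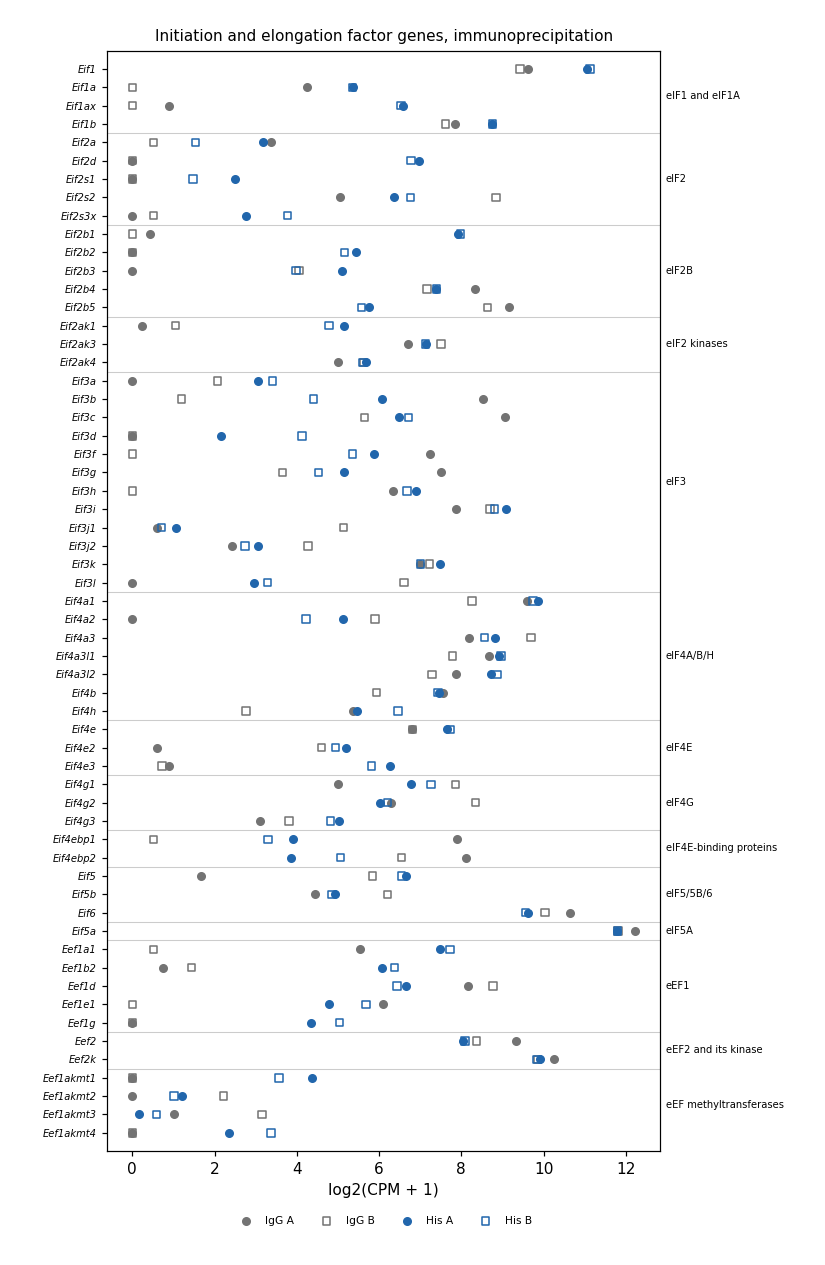
Each row is 1 of the 59 factor genes tested in the pulldown, grouped by role. The horizontal axis gives log2(CPM + 1), with grey points for IgG and blue points for His libraries (filled circles replicate A, open squares replicate B). Grey points of 1 gene can be at 0 in one IgG library and high in the other, some blue pairs such as Eif3b and Eif3d also lie apart, and 28 genes have both blue points to the right of both grey ones.

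All 4 genes of the eIF1 and eIF1A group had both His libraries above both IgG libraries, as in 54.1% of all genes, and 2 passed. Eif1 was at 783 CPM in IgG A, 687 CPM in IgG B, 2122 CPM in His A and 2244 CPM in His B, and it rose 2.97-fold (a log2 fold change of 1.57, SE 0.11, limma adjusted p 0.00997). Of the called members it had the most IgG reads, 3214 to 4642, and 17750 to 17763 reads in His. Eif1ax had 5 and 0 reads in IgG and 786 and 724 reads in His, or 94 and 91.4 CPM (a log2 fold change of 6.11, SE 0.71, adjusted p 0.0113). Eif1a was at 17.9 and 0 CPM in IgG and 40.3 and 39.8 CPM in His, and Eif1b at 229 and 195 CPM in IgG and 425 and 430 CPM in His. Neither of these passed (limma adjusted p 0.281 and 0.108). For comparison, the His libraries held 80.3 and 83.6 CPM of Eif1ad3 itself and the IgG libraries 1.35 and 30.8 CPM (limma adjusted p 0.252).

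The eIF2 and eIF2B genes held the member called lower and several called higher, where 0.917% and 35.7% of all genes were so called. Those called higher (Eif2b1, Eif2b2, Eif2d, Eif2s1 and Eif2s3x) had both IgG libraries under 1 CPM and could only be called higher. Eif2b1, the alpha subunit of eIF2B, had 2 and 0 reads in IgG and 2014 and 1997 reads in His, or 241 and 252 CPM (a log2 fold change of 7.74, SE 0.75, limma adjusted p 0.00997). Eif2b2, the beta subunit, had no read in IgG and 42.1 and 34.9 CPM in His, at least 60.0-fold higher (adjusted p 0.00997). Eif2b5, the epsilon subunit, went the other way with 572 and 395 CPM in IgG and 52.7 and 46.5 CPM in His (a log2 fold change of -3.24, SE 0.56, adjusted p 0.0246). Eif2b4, the delta subunit, overlapped, at 321 and 143 CPM in IgG and 165 and 168 CPM in His, and so did Eif2b3. Eif2d, a factor that can place initiator tRNA without eIF2, had no read in IgG and 124 and 108 CPM in His, at least 181-fold higher (adjusted p 0.00997).

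Of the 3 subunits of eIF2, Eif2s1 and Eif2s3x had few reads in the pulldown. Eif2s1 had no read in IgG and 39 and 14 reads in His, at least 5.02-fold higher (limma adjusted p 0.0427). Eif2s3x had 0 and 2 reads in IgG and 48 and 100 reads in His (adjusted p 0.0241). Eif2s2 overlapped, with 32.1 and 458 CPM in IgG and 80.6 and 108 CPM in His. No member passed with quantile normalization or with edgeR, so every call rests on the scaling or the tool. With quantile normalization Eif2s1 and Eif2s3x also changed direction. Eif2s1 passed in 4 of the 9 alternatives that kept all libraries and tested it. Of the kinases, Eif2ak1, which senses heme, passed with 1 and 5 reads in IgG and 288 and 210 in His (adjusted p 0.0141), and Eif2ak3, the kinase of the endoplasmic reticulum, was at 104 and 181 CPM in IgG and 140 and 139 CPM in His.

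No eIF3 gene passed among 12 tested (limma, 1 with an unadjusted p under 0.05), while 35.7% of all genes were called higher. Of those calls 90.9% were genes under 1 CPM in both IgG libraries, as only Eif3d was here. Of genes with 1 CPM or more in an IgG library 5.25% were called higher. Both His libraries were above both IgG libraries in 4 (33.3%, beside 54.1% of all genes) and below in 0, and the groups overlapped in 8. Here edgeR called 0 and DESeq2 called Eif3d higher (adjusted p 0.000324) and Eif3j1 lower (0.0247). Eif3c was at 534 and 49.2 CPM in IgG, with His at 88.5 and 104 CPM in between. Eif3b spanned 369 and 1.28 CPM in the IgG libraries and was at 66.7 and 20.2 CPM in His. For both genes the IgG libraries lay on either side of both His libraries. Eif3a was low in every pulldown library, at 0 and 3.21 CPM in IgG and 7.29 and 9.6 CPM in His. Eif3j1 was at 0.506 and 34 CPM in IgG and 1.08 and 0.632 CPM in His, and Eif3j2 at 4.39 and 18.4 CPM in IgG and 7.29 and 5.68 CPM in His. Both pairs overlapped.

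In the cap complex 1 gene passed, Eif4e3, with 5 and 3 reads in IgG and 637 and 439 reads in His (a log2 fold change of 5.25, SE 0.63, limma adjusted p 0.012). With both IgG libraries under 1 CPM it could only be called higher. Of all genes 35.7% were called higher. Eif4e was at 111 and 112 CPM in IgG and 200 and 213 CPM in His, a 1.85-fold difference that did not pass (adjusted p 0.32). Eif4g2 was at 77.6 and 325 CPM in IgG and 64.1 and 72.9 CPM in His, so both His values lay under both IgG values. Eif4g1 had IgG values of 30.9 and 230 CPM around its His values of 109 and 153 CPM. Eif4g3 was at 7.59 and 13 CPM in IgG and 31.6 and 27.3 CPM in His. Eif4a1 was at 768 and 305 CPM in IgG and 932 and 858 CPM in His, and Eif4a2 at 0 and 58.6 CPM in IgG and 33.6 and 17.7 CPM in His. Eif4ebp2, a repressor of eIF4E, was higher in IgG (275 and 92.5 CPM) than in His (13.5 and 32.5 CPM), without passing (adjusted p 0.144). Eif4ebp1 was at 238 CPM in IgG A and 0.427 CPM in IgG B, with His at 13.9 and 8.84 CPM.

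Several genes of the late and elongation steps had many reads with both antibodies. Eif5a was at 4768 and 3590 CPM in IgG and 3547 and 3570 CPM in His. Eif6 was at 1598 and 1048 CPM in IgG and 791 and 752 CPM in His. Eef2 was at 646 and 329 CPM in IgG and 261 and 271 CPM in His, and Eef1d at 284 and 436 CPM in IgG and 100 and 85.8 CPM in His. In these 4 genes both His libraries lay below both IgG libraries, as in 9.06% of all genes, and none passed (limma adjusted p 0.0738 to 0.42). DESeq2 called Eef1d (adjusted p 2.84e-07) and Eif6 (0.0269) lower. Its other lower calls were Eif2b5, Eif4ebp2, Eif3j1 and Eef1akmt3. Eef2k overlapped, at 1221 and 923 CPM in IgG and 965 and 917 CPM in His. Eif5 was at 2.19 and 56.4 CPM in IgG and 99.2 and 92.7 CPM in His, and Eif5b at 20.8 and 72.9 CPM in IgG and 29.4 and 28 CPM in His. Neither passed.

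Of the 5 eEF1 genes 2 were called higher (40.0%, beside 35.7% of all genes). Of these, Eef1g had both IgG libraries under 1 CPM and could only be called higher. Eef1b2, the nucleotide exchange subunit, was at 0.675 and 1.71 CPM in IgG and 65.6 and 82 CPM in His (a log2 fold change of 5.13, SE 0.72, limma adjusted p 0.0154). Eef1g, its partner, had no read in IgG and 19.4 and 32 CPM in His, at least 40.0-fold higher (adjusted p 0.00997). Eef1a1 was at 45.1 and 0.427 CPM in IgG and 179 and 210 CPM in His, and the span between its IgG libraries kept it from passing (a log2 fold change of 4.59, SE 2.10, adjusted p 0.209). Among the methyltransferases Eef1akmt1 and Eef1akmt4 passed, and with both IgG libraries under 1 CPM they could only be called higher. Eef1akmt1 had no read in IgG and 19.5 and 10.9 CPM in His, and Eef1akmt4 had no read in IgG and 4.06 and 9.35 CPM in His, at least 23.7-fold and 10.5-fold higher.

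Levels in the pulldown were far from those in embryos for part of the members. The tables were normalized separately and come from embryos with different injections, so this is a description with no test. Of 57 members with a control mean of at least 10 CPM, 14 (24.6%) had a His level at least 4-fold below the control level on the log2(CPM + 1) scale, as did 26.2% of 7263 such genes, and 2 (3.51%) were at least 4-fold above, as were 10.5%. The 14 were Eif2s1, Eif2s2, Eif2s3x, Eif2a, Eif3a, Eif3e, Eif3j1, Eif3j2, Eif3m, Eif4a2, Eif4e, Eif4g2, Eif5 and Eif5b, and the 2 were Eif1b and Eef2k. All 3 subunits of eIF2 and 5 of the eIF3 genes were among the 14. In IgG the 14 were also below the control level, by differences from -1.62 (Eif2s2) to -8.78 (Eif2s1) in log2(CPM + 1). Across the 57 members the His and IgG differences from control had a Spearman's rho of 0.60, beside 0.58 across the 7263 genes. The low levels were thus not particular to His. Eif2s1 had a mean of 438 CPM in control embryos and 3.22 CPM in His, and Eif3a 633 and 8.45 CPM. Eef2k had a mean of 39.8 CPM in control embryos and 941 CPM in His, with 1072 CPM in IgG. Eif1b had a mean of 49 CPM in control embryos, 428 CPM in His and 212 CPM in IgG.

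The same 14 members all had a higher level in knockdown B than in knockdown A, by a median of 0.73 log2 units. Of the 41 members between the 4-fold limits 8 did, with a median of -0.63, and of Eif1b and Eef2k 0 did. Across the 57 members the His-to-control difference and the difference of knockdown B from knockdown A had a Spearman's rho of -0.65 (Pearson's r -0.71). The pattern was present in the whole tables and is not particular to these genes: rho was -0.53 across the 7263 genes, and knockdown B was above A in 67.8% of the genes at least 4-fold below, 31.3% between and 6.54% of those at least 4-fold above. The 2 differences share no library, and the genes within each share depth and library composition. Summed oocyte markers were high in the same libraries, at 14297 to 14427 CPM in His and 15144 CPM in knockdown A against 6878 CPM in knockdown B, but at 3672 to 4490 CPM in IgG. In knockdown B 7 of these markers were below both controls. Of the 10 genes Btg4, Nlrp5 and Zp2 were lower in both His libraries than in both controls. The part of these markers in the pattern was not tested.

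**Figure D3:**
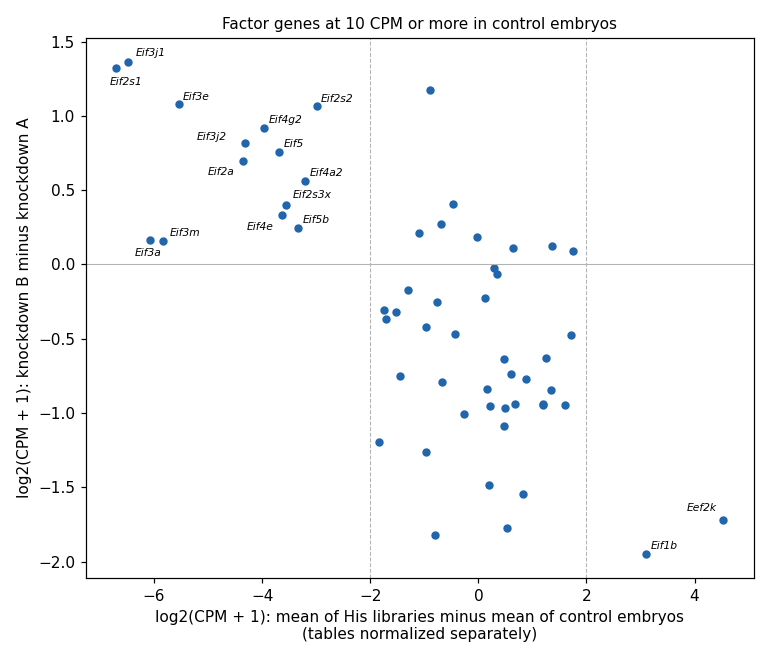
Each point is 1 of the 57 factor genes with a control mean of at least 10 CPM. The horizontal axis is the His mean minus the control mean and the vertical axis knockdown B minus knockdown A, both in log2(CPM + 1), with dashed lines at 4-fold. The 14 named genes on the left all lie above 0, while Eif1b and Eef2k on the right lie below it.

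Other genes of the translation pathway, outside the factor families, were taken from a list of 55 that covered poly(A)-tail partners, scanning helpers, eIF2 kinase control, mTORC1 and MNK signalling, hypusination, termination and mitochondrial translation. In the knockdown 0 of 53 tested passed (limma; 3 unadjusted), 11 were below and 11 above both controls (20.8% each, beside 18.4% and 18.1% of all genes), and their median log2 fold change was 0.10. In the pulldown 14 of 48 were higher in His (29.2%, beside 35.7% of all genes) and 0 lower (0.917% of all genes), with a median of 1.48 beside 2.01. All 14 had both IgG libraries under 1 CPM and could only be called higher, and of the other 33 tested 0 were. The 5 with the largest change were Tsfm, Rheb, Ddit3, Ppp1r15b and Mknk1. Rheb, which activates mTORC1, had no read in IgG and was at 50 and 71.5 CPM in His, and Ddit3, a stress factor downstream of eIF2 phosphorylation, had none in IgG and 62.2 and 47.6 CPM in His (limma adjusted p 0.00997 for each). Ribosomal protein genes had a median pulldown change of -0.003 over 86 genes with 13 called higher, and 20 cytosolic aminoacyl-tRNA synthetase genes had 1.63 with 7 called higher. The factor genes, at 0.88 with 13 of 59 called higher, lay between the 2 groups. Of these 13 calls 10 were genes under 1 CPM in both IgG libraries, and the other 2 lists were not split this way. The lists had the same order by their share of genes with no read in IgG A. These were 14 of 86 ribosomal protein, 13 of 59 factor and 10 of 20 synthetase genes. The order of the lists thus cannot be told apart from detection in IgG, and these differences between lists were not tested.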

How the data were processed

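The values used were CPM deposited by the authors in 2 tables, one for the knockdown and one for the immunoprecipitation, per the file headers and names. The submitters' processing notes name Trim Galore 0.6.7, FastQC, HISAT2 2.2.1, featureCounts 2.0.1, edgeR and the build GRCm39, with no order. The annotation, strand setting and handling of reads that match several genes are not given in the sources used here. The labels' protocols name a Smart-seq2 kit, in which cDNA is amplified without molecular identifiers, so floors cover counting error only. In each library all values (100%) came out as a whole number of reads within 0.05 read, which gave back reads and totals. Listed genes summed to 940381 to 962715 CPM, so each total held reads of rows not analysed here. The names of 4 further columns do not decide between the input and total RNA samples, so they were not used and 3 of the 5 planned comparisons were not run. Of 12 labelled samples 8 were used.

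The test was limma 3.58.1 on log2(CPM + 1), for genes reaching 1 CPM in 2 or more of a comparison's libraries (eBayes with trend, two-sided, R 4.3.3). P-values had Benjamini-Hochberg adjustment over all genes tested and a threshold of 0.05. Only the 4 libraries of the groups compared entered each fit. With 2 against 2 libraries an exact permutation test cannot pass this threshold. Alternatives were pseudocounts of 0.1 and 5, other filters, median rescaling, the replicate letter as a block, leaving out each library, quantile normalization, eBayes without trend, and edgeR 4.0.16 and DESeq2 1.42.0 on recovered reads. The fits were tested on simulated data. The members, roles, lists and rules were chosen with earlier results of these data known. Named with values were a fixed core of members, members past the threshold (up to 10 in each direction), the 5 largest changes in each direction at a mean of 10 CPM or more without overlap, and up to 5 called pathway genes. Other names, the 4-fold limit and the search of start sites were chosen after values were seen.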

Additional observations from a re-analysis of the deposited data

How the results depend on the processing

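In the knockdown comparison 0 members passed in the main fit and in each of the 10 alternatives that kept all libraries. Leaving out 1 library gave 0 to 22 called members and 0 to 1894 called genes, from 0 genes in the main fit, which became 2 with the replicate block and 15 with DESeq2. The replicate block changed no member's call in the knockdown; same-letter deviations correlated at 0.146 there and -0.014 in the pulldown, and with 2 pairs the letters are only names. The members' median ranged from -0.28 to -0.04. The direction changed for members near 0: with median rescaling Eif3j2 (-0.023) and Eif5b (-0.039), with quantile normalization Eif4g2 (0.061), with edgeR Eif4e (0.043) and Eif4g2 (0.092), and with DESeq2 Eif4e (0.055) and Eif4g2 (0.11). Leaving out libraries moved across 0 Eif3j2 (-0.36 to 0.45), Eif5b (-0.096 to 0.15), Eif4ebp2 (-0.37 to 0.052), Eif4ebp1 (-0.28 to 0.24), Eef2k (-0.78 to 0.94), Eif1b (-0.070 to 1.88), Eif4e (-0.17 to 0.16), Eif4g2 (-0.51 to 0.41), Eif2s1 (-0.27 to 1.05), Eif2s2 (-0.35 to 0.71), Eif3j1 (-0.44 to 0.93), Eif4a1 (-0.81 to 0.13) and Eif4g1 (-0.61 to 0.33).

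In the pulldown the 14 called members became 0 with quantile normalization and with edgeR, and 0 to 40 when 1 library was left out. With the replicate block 13 were called, all higher, since Eif2b5 no longer passed. Of all genes 4111 were called, against 2356 with a filter at a mean of 5 CPM, 0 with quantile normalization and with edgeR, and 6 to 7679 when 1 library was left out. DESeq2 called 20 members, 70.0% of them higher against 92.9% in the main fit. The members' median of 0.88 was 0.47 after median rescaling, 0.13 after quantile normalization, 0.30 from edgeR and 0.027 from DESeq2, and 0.28 to 1.14 when 1 library was left out; the median of all genes was then 1.79, -0.08, 1.56 and 1.30 in the same order of scalings and tools. Directions changed with quantile normalization for Eif2s1 (-0.36), Eif2s3x (-0.24), Eif3a (-0.69), Eif4a2 (-0.38) and Eif4g3 (-0.90), with edgeR for Eif4a2 (-0.091), and with DESeq2 for Eif4a2 (-0.29) and Eif4g1 (-0.16). Leaving out libraries moved across 0 Eif3c (-2.46 to 0.95), Eif4a2 (-1.23 to 4.67), Eif4g1 (-0.83 to 2.02), Eif4ebp1 (-4.30 to 3.08), Eef2k (-0.38 to 0.03), Eif2s2 (-2.29 to 1.51), Eif3j2 (-1.38 to 0.47) and Eif5b (-1.31 to 0.45). What caused these changes was not tested. A fit over all mapped pulldown libraries is the main fit itself, and the planned comparisons with input or total RNA were not run.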
